A study of Mus musculus with 67 samples.

Results

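The 10 genes described here encode factors that write, copy, remove or protect methyl groups on DNA, namely Dnmt1, Dnmt3a, Dnmt3b, Dnmt3l, Uhrf1, Tet1, Tet2, Tet3, Dppa3 and Trim28. They were chosen by symbol, and all 10 were found among the 26414 genes of the deposited table. Their RNA was measured in 67 libraries of C57BL/6 preimplantation embryos, made by SMART-seq2, which turns polyadenylated RNA into full-length cDNA. The control embryos were kept in the dark, and the light group received 5000 lx for 6 h at the 2-cell stage, followed by culture in the dark. Control libraries numbered 7 from 2-cell embryos, 6 from 4-cell embryos, 4 from 8-cell embryos, 13 from morulae and 3 from blastocysts, and light libraries 6, 8, 8, 6 and 6 in the same order. All embryos came from in vitro fertilization of oocytes of 6-week-old females with sperm of 10-week-old males. The labels number embryos, whereas the study's methods describe single cells picked from dissociated embryos. Which libraries shared an embryo is not given, so the p-values measure the spread between these libraries and are too small where libraries shared one.

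DNA methylation is placed de novo by DNMT3A and DNMT3B, with DNMT3L as a partner that has no catalytic activity, and it is copied to new strands by DNMT1, which UHRF1 brings to hemimethylated sites. TET enzymes oxidize 5-methylcytosine and so begin its removal. In the mouse, most methylation inherited from the gametes is lost between fertilization and the blastocyst stage: TET3 stored in the oocyte acts on the paternal genome, DPPA3 (also called STELLA) shields the maternal genome, and TRIM28 (KAP1), which KRAB zinc-finger proteins bring to DNA, keeps the methylation of imprinted regions.

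Each deposited value is a read number of a gene over the size factor of its library, and is not divided by the length of the gene. Libraries had 835751 to 8550860 reads on genes, of which 54.0% to 89.3% lay on CT010467.1 and Gm42418, a pair of overlapping rows of ribosomal RNA. This left 317917 to 2864968 reads for all other genes. On the deposited scale 1 CPM (read count scaled to the library's total outside these rows) was worth a median of 1.25 units in control 2-cell libraries but 0.733 in control and 0.395 in light blastocysts. For most member calls that depended on this, both scales are given. Ranges and their overlap refer to the deposited scale unless CPM is named. The ratio of reads of Gm42418 to CT010467.1 did not overlap between light and control libraries among 2-cell embryos, among 8-cell embryos and among morulae, and its part in the results below was not tested. At the 4-cell stage, this ratio was 4.55 and 4.35 in control libraries 1 and 2 and 1.61 to 1.98 in the other 4 control libraries. Tet2 was at 0.852 and 1.97 in these 2 libraries and at 26.6 to 68.4 in the other 4. By median rank correlation over genes, 10 of 13 control morula libraries, 3 of 6 control 4-cell libraries and 1 of 7 control 2-cell libraries were closer to the light libraries of their stage than to their own group, and 0 of the other control libraries and 0 of 34 light libraries were closer to the other condition. The summed signal of 8 genes of the 2-cell stage was 345 to 878 in control 2-cell libraries and 1.74 to 5.26 in control blastocysts, and that of 9 trophectoderm genes was 68.9 to 195 and 482 to 6617, respectively. The fall of the 2-cell genes was not steady, with 0.852 to 6.57 in control 4-cell and 36.3 to 304 in control 8-cell libraries. Its part in the results that use control 8-cell libraries was not tested. In light 2-cell libraries 9, 10 and 12 the 8 genes of the 2-cell stage summed to 124, 170 and 57.8. In light 2-cell libraries 14, 15 and 16 they summed to 607, 1839 and 738. The part of this split in the results of 2-cell embryos was not tested. Genes of cumulus cells summed to at most 239 and those of sperm to at most 10.4 in any library.

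The promoters of the 5 genes with 1 listed start each are shown, because CpG sites are themselves the targets of these enzymes and each of these genes was called in at least 1 comparison. Each is the stretch of 250 bases before the RefSeq start, in the direction of the gene, with CpG sites in capitals. On GRCm38.p6 they lie at chr10:62887325-62887574 (minus strand) for Tet1, chr3:133544391-133544640 (minus) for Tet2, chr6:83441679-83441928 (minus) for Tet3, chr2:153649199-153649448 (plus) for Dnmt3b and chr7:13023902-13024151 (plus) for Trim28.
Tet1: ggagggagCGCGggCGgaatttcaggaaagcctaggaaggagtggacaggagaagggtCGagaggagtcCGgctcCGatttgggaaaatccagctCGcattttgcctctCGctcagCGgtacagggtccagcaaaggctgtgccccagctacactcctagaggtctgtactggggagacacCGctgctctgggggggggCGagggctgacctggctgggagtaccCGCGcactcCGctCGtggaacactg
Tet2: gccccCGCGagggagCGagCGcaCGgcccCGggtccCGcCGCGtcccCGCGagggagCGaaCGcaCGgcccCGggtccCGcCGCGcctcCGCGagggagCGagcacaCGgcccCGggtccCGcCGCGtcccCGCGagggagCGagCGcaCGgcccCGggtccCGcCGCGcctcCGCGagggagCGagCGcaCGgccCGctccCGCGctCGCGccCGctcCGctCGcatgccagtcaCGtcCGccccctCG
Tet3: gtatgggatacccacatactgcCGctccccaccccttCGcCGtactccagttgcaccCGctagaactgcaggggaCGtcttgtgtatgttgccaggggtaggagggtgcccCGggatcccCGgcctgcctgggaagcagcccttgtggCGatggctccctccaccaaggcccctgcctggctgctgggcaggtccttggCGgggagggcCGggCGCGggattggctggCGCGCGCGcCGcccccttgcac
Dnmt3b: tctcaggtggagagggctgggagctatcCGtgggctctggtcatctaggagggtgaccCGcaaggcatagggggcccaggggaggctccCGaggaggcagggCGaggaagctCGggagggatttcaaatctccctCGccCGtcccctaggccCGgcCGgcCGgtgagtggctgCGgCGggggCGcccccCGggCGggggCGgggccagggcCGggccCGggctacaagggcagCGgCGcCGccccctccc
Trim28: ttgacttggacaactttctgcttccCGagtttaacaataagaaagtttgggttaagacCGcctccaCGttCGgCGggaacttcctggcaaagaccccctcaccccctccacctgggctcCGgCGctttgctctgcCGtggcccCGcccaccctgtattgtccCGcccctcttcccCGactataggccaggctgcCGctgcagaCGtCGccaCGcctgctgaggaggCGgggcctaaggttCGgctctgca
The Tet2 window held 51 CpG sites, and only 0.0670% of the 32851 mouse promoter windows of this length held as many or more. The windows of Dnmt3b, Tet3, Trim28 and Tet1 held 21, 17, 17 and 15, which 16.3%, 23.5%, 23.5% and 27.3% of the windows reached, against a median of 6. Dnmt1 had 3 listed starts with 2, 7 and 26 CpG sites, and the 3 windows of Dnmt3l held 5, 4 and 3. The windows of Dnmt3a held 38, 40 and 15, which 1.88%, 1.31% and 27.3% of the windows reached. Those of Uhrf1 held 10 and 30, which 37.8% and 5.94% reached. The exons of Dnmt3a, Dnmt3l and Tet2 overlap by 133, 67 and 43 bases with genes on the other strand, Dnmt3aos, Aire and Gm42567, whose reads cannot be told apart where counting ignored strand. Windows were found for 9 of the 10 genes, and methylation itself was not measured in these libraries. The GENCODE spans of Tet1, Tet2, Tet3 and Trim28 begin upstream of the windows shown, at bases 62908996, 133545139, 83459084 and 12999114. Which start was used in these embryos was not tested.

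Per kb of exon, on the deposited scale, Dppa3 had by far the highest level in each group, at 1942 ± 530 (SD, n = 7) units per kb in control 2-cell libraries, and Trim28 was next in every group but the control 2-cell one. Tet3 held that place there with 58.0 ± 19.0 units per kb, and did not differ from Trim28 (48.7 ± 30.2) or Uhrf1 (34.8 ± 19.2) beyond the spread. Tet3 was last in light 8-cell libraries and in all morula and blastocyst groups, at 1.50 ± 0.639 units per kb in control blastocysts. Tet2 moved the other way, from last in control 2-cell libraries (2.39 ± 1.28) to the third place in control blastocysts (62.6 ± 34.3).

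A gene was called when its limma test had a Benjamini-Hochberg adjusted p under 0.05 over all genes tested and a fold change of at least 2, on log2 of the deposited value plus 1. All 10 members passed the filter on low values in every comparison. In light 2-cell embryos Tet3 was lower and Trim28 higher, so that 2 of 10 members were called where 10.5% of all tested genes were. At the 4-cell stage 0 of 10 were called by limma, edgeR or DESeq2 (2 at an unadjusted p under 0.05), with 1.45% of all genes, and limma also called 0 without control libraries 1 and 2. In 8-cell embryos Dnmt3b alone was called, where 9.2% of all genes were, and in morulae Trim28 alone, with 1.18%. In blastocysts Tet1, Tet2, Dppa3 and Trim28 were lower in light, 4 of 10 members against 5.33% of all genes, but the deposited scale shifted the median of all genes by -0.64 (log2) in this comparison, against -0.10 after median-ratio scaling. Of all called genes, 93.4% were lower in light blastocysts on the deposited scale and 53.5% after median-ratio scaling. On the deposited scale, light and control values did not overlap for Tet3 in 2-cell embryos (4.15% of all genes), for Dnmt3b and Trim28 in 8-cell embryos (5.61%) and for Tet1, Tet2 and Dppa3 in blastocysts (12.5%), and they overlapped for all 10 members in 4-cell embryos (0.56% of all genes without overlap) and morulae (0.553%). In CPM outside the ribosomal rows, Trim28 in 8-cell embryos and Tet1 and Dppa3 in blastocysts overlapped.

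**Figure D1:**
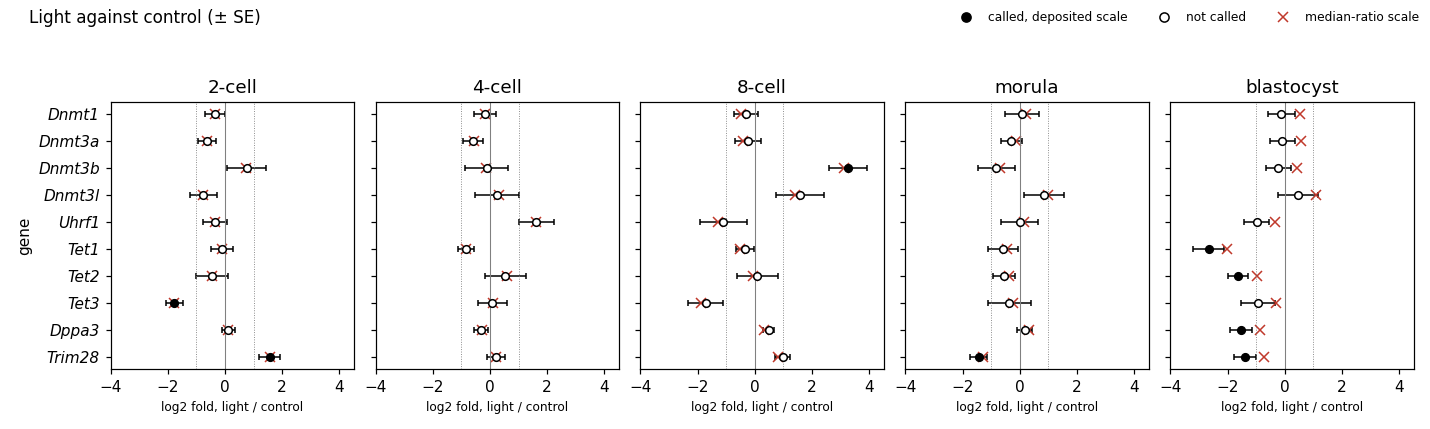
Log2 fold change of light against control (x axis) for the 10 genes (y axis) at each stage, as limma estimates with bars of 1 SE. Filled circles were called and open circles were not, red crosses give the estimate after median-ratio scaling, and dotted lines mark 2-fold. The calls were Tet3 and Trim28 (2-cell), Dnmt3b (8-cell), Trim28 (morula) and 4 genes in blastocysts, where the crosses lie closer to 0 than the circles for all 4.

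The step from 2 to 4 cells had the most members called in control but not in light embryos, where the step to the morula had as many. In control embryos 6 of 10 were called, with 46.1% of all genes, as Tet3, Uhrf1, Dnmt3a and Dnmt3l fell and Tet1 and Trim28 rose. In light embryos the former 4 were called and fell too, with 36.5% of all genes. From the 4-cell to the 8-cell stage, 1 member was called in control (6.32% of all genes) and 2 in light (10.5%). From there to the morula, 4 were called in control with 14.3% of all genes (Tet2, Dnmt3b, Dnmt3l and Trim28, which rose), and 4 in light with 11.8% (Tet2 and Dnmt3l, which rose, and Tet1 and Trim28, which fell). From morula to blastocyst, 1 was called in control (11.9%) and 2 in light (20.7%). In deposited values, neighbouring stages did not overlap for 2, 2, 1 and 1 members in the control steps, with 20.4%, 6.79%, 5.02% and 7.88% of all genes, and for 3, 0, 2 and 2 in the light steps, with 13.0%, 2.2%, 3.58% and 8.23%. On the deposited scale the median of all genes moved by -0.56 and -0.45 from 4 to 8 cells in control and light, and by -0.45 from morula to blastocyst in light, against 0.04, -0.04 and 0.05 after median-ratio scaling. Neighbouring steps share the libraries of the stage between them. The change from 8-cell embryo to morula differed between light and control for Dnmt3b and Trim28 by an interaction term (2.62% of all genes), whereas the other 3 steps had 0 members called (3.08%, 3.81% and 1.57% of all genes from the earliest to the latest). In these 3 steps 3, 4 and 2 members had an unadjusted p under 0.05, edgeR called 1, 0 and 0, and DESeq2 called 2, 2 and 0.

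Tet3, whose oocyte-stored RNA encodes the TET enzyme of the zygote, was the most changed member at the 2-cell stage. Its deposited values were 747, 814 and 1632 (lowest, median and highest of 7) in control libraries and 137, 304 and 486 in the 6 light libraries. Every light library was below every control library. The mean of light was 0.309 of that of control, and the log2 fold change of -1.77 ± 0.28 (SE) had an adjusted p of 0.000172. It was called in all 8 alternative analyses and without any single library. These 8 leave out the replicate block. Limited to the 3 shared replicate numbers, limma did not call it with the block (adjusted p = 0.104) or without it (adjusted p = 0.051). RNA of 9 oocyte genes, such as Zp3 and Gdf9, was detected for 9 of 9 genes in both groups, and its sum also did not overlap, with 2581 to 5674 in control and 781 to 2297 in light, and its part in the Tet3 result was not tested.

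By the 4-cell stage Tet3 had fallen in both groups, with values of 19.4, 25.4 and 69.4 (lowest, median and highest of 6) in control and 11.3, 42.7 and 59.4 (of 8) in light libraries. These ranges overlap. The fall from the 2-cell stage was -4.87 ± 0.37 in control (adjusted p = 1.66e-09) and -3.02 ± 0.40 in light embryos (adjusted p = 8.35e-07). The falls differed by 1.85 ± 0.56 with an adjusted p of 0.0568, which missed the threshold. This difference was called in 5 of 8 alternatives, among them median-ratio scaling (2.15, adjusted p = 0.0224), and without any 1 of light 2-cell 16, control 4-cell 1 or 4, or light 4-cell 9 or 14, with adjusted p from 0.0301 to 0.0448.

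At the 8-cell stage Tet3 was at 38.0, 61.2, 17.4 and 48.8 in the 4 control libraries and at 3.37, 10.5 and 31.3 (lowest, median and highest of 8) in light libraries. The groups overlap, and the log2 fold change of -1.73 ± 0.63 had an adjusted p of 0.0817 (limma), with 0.039 by DESeq2. The step from 4 to 8 cells in light embryos, -1.53 ± 0.48 (adjusted p = 0.0324), was called on the deposited scale and not after median-ratio scaling (-0.97, adjusted p = 0.309). It was also lost without any 1 of light 4-cell 1, 5, 7, 11 or 13 or light 8-cell 5, 6 or 11 (adjusted p from 0.0516 to 0.0653). In morulae and blastocysts Tet3 had group means of 12.2 to 25.1 and was not called.

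Tet2, a TET enzyme without the CXXC domain of its relatives, was the member that rose most at the morula stage. Control values were 44.4, 19.2, 52.2 and 3.34 in the 4 libraries of the 8-cell stage and 82.1, 394 and 989 (lowest, median and highest of 13) in morulae. Every morula library was above every 8-cell one on the deposited scale, but these ranges overlapped in CPM outside the ribosomal rows. The log2 change was 3.97 ± 0.57 in control (adjusted p = 2.22e-05) and 3.33 ± 0.45 in light embryos (adjusted p = 1.79e-05), called in all 8 alternatives and without any single library in both. Light deposited values went from 6.38, 24.2 and 92.4 (of 8) to 107, 263 and 345 (of 6), without overlap. The difference between the rises was -0.64 ± 0.79 (adjusted p = 0.776).

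In blastocysts Tet2 reached 577, 896 and 1698 in the 3 control libraries and 239, 300.3 and 482 (lowest, median and highest of 6) in light libraries. Each light library was below each control library, and the log2 fold change of -1.63 ± 0.36 was called on the deposited scale (adjusted p = 0.0135). After median-ratio scaling it was -0.96 (adjusted p = 0.0953), and in CPM outside the ribosomal rows the means were 1565 ± 652 (SD, n = 3) in control and 831 ± 149 (n = 6) in light. The call was also lost per reads outside the ribosomal rows, by edgeR and in 1 fit over all libraries. It was lost as well without control blastocyst 2 (adjusted p = 0.0523) or 3 (0.0736). The steps from morula to blastocyst, 1.51 ± 0.54 in control (adjusted p = 0.0675) and 0.43 ± 0.32 in light (adjusted p = 0.355), were not called on the deposited scale, and were called after median-ratio scaling, at 1.85 (adjusted p = 0.0235) and 1.16 (adjusted p = 0.00318).

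Tet1, the TET enzyme of pluripotent cells, was at 59.4, 153 and 502 (lowest, median and highest of 7) in control 2-cell libraries and at 233, 346 and 395 (of 6) at the 4-cell stage. This rise of 1.02 ± 0.41 was just past both thresholds (adjusted p = 0.0442). It was called without only 4 of the 13 libraries in turn, and was lost (adjusted p from 0.0532 to 0.0978) without any 1 of control 2-cell 8, 9, 10, 11 or 24 or control 4-cell 2, 3, 4 or 6. In light embryos the same step was 0.28 ± 0.28 (adjusted p = 0.447), and the steps differed by -0.74 ± 0.49 (adjusted p = 0.43). At the 4-cell stage light values were 137, 178 and 248 (of 8), and the log2 fold change against control of -0.84 ± 0.28 was not called (adjusted p = 0.114).

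In light embryos Tet1 fell from 87.5, 128 and 338 (lowest, median and highest of 8) at the 8-cell stage to 19.0, 44.1 and 118 (of 6) in morulae, by -1.55 ± 0.36 (adjusted p = 0.00387), in all 8 alternatives. The control step of -1.29 ± 0.58 (adjusted p = 0.144) was not called on the deposited scale, but was called after median-ratio scaling (-1.56, adjusted p = 0.0436) and in 1 fit over all libraries (adjusted p = 0.0343). The control step from morula to blastocyst, 1.92 ± 0.72 (adjusted p = 0.0873), was called in 4 of 8 alternatives, with 2.25 (adjusted p = 0.0271) after median-ratio scaling. In blastocysts the 3 control values, 577, 415 and 77.1, lay far apart, whereas the light libraries had 16.2, 47.2 and 53.6 (of 6). All light libraries were below the lowest control one on the deposited scale. In CPM outside the ribosomal rows the ranges overlapped, with means of 613 ± 538 (SD, n = 3) in control and 114 ± 37.7 (n = 6) in light. The log2 fold change was -2.66 ± 0.54 (adjusted p = 0.00999). It was called in 7 of 8 alternatives, with -2.01 (adjusted p = 0.0451) after median-ratio scaling and -1.90 (adjusted p = 0.0571) per reads outside the ribosomal rows, and was lost without control blastocyst 2 (adjusted p = 0.0591).

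The control blastocyst libraries were not alike in their markers. In control 1, 2 and 3, the sum of 7 inner cell mass genes, among them Nanog and Sox2, was 1803, 1285 and 289, and that of 9 trophectoderm genes was 482, 3200 and 6617. The light blastocysts had 143 to 207 and 2803 to 7031, and all 7 and 9 genes had reads in both groups. Tet1 and Trim28 had their lowest control value in library 3, and Tet2 had its highest there. The part of this make-up in the results of blastocysts was not tested. Fewer cells of a type and less RNA in each cell cannot be told apart here where a library holds more than 1 cell.

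**Figure D2:**
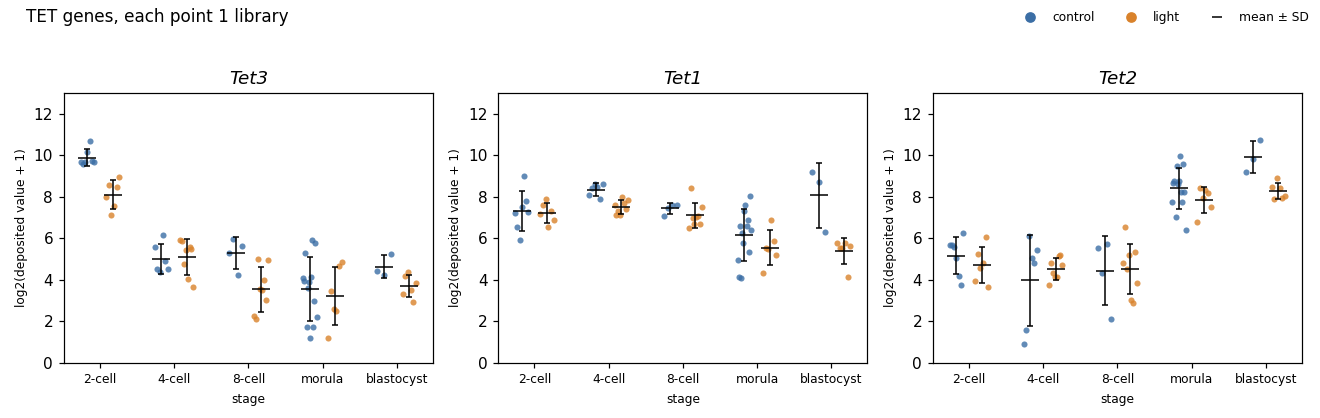
Log2 of the deposited value plus 1 (y axis) of Tet3, Tet1 and Tet2 by stage (x axis), with 1 point for each control (blue) or light (orange) library and black bars for mean ± SD. Tet3 was highest at the 2-cell stage, where all light libraries lay below all control ones, and Tet2 was highest in morulae and blastocysts.

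The TET gene with the largest share of the summed TET signal differed between stages. The share of a gene in the summed TET signal per kb does not depend on the size factor of the library. Tet3 made up 80.4% ± 4.68 (SD, n = 7) of it in control 2-cell libraries and 58.7% ± 14.3 (n = 6) in light ones. At the 4-cell stage Tet1 took its place, with 85.1% ± 5.21 (n = 6) in control and 76.1% ± 8.67 (n = 8) in light, and it kept 72.2% ± 6.89 and 78.3% ± 7.31 at the 8-cell stage. Tet2 held 75.0% ± 16.0 (n = 13) in control and 78.4% ± 6.07 (n = 6) in light morulae. In blastocysts the share of Tet2 was 65.6% at the median in control, between 47.0% and 93.3%, and 83.8% ± 4.78 (n = 6) in light libraries. The log2 ratio of Tet1 to Tet3 reads went from -2.56 ± 0.68 to 3.38 ± 0.87 from 2 to 4 cells in control, and from -0.88 ± 0.92 to 2.43 ± 1.08 in light embryos.

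**Figure D3:**
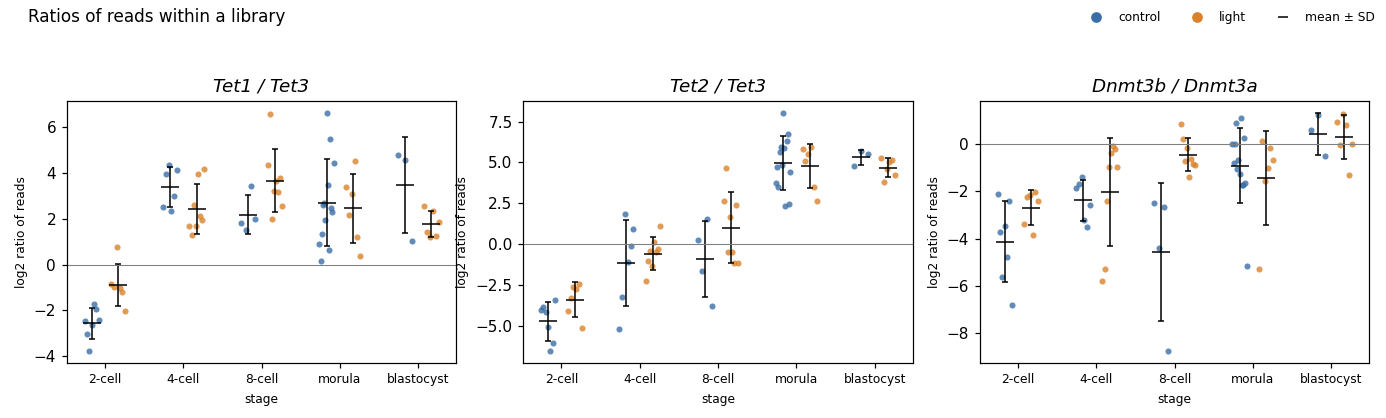
Log2 ratio of reads within a library (y axis, 0.5 reads added to each gene) by stage (x axis), for Tet1 over Tet3, Tet2 over Tet3 and Dnmt3b over Dnmt3a, with 1 point for each control (blue) or light (orange) library and bars for mean ± SD. Each of the 3 ratios was below 0 on average in both groups at the 2-cell stage, and in control 8-cell libraries Dnmt3b over Dnmt3a averaged -4.58 against -0.44 in light ones.

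Among the writers of methylation, Dnmt3b changed most with light. At the 8-cell stage its values were 7.40, 4.79, 5.80 and 0 in the 4 control libraries and 14.7, 39.2 and 130 (lowest, median and highest of 8) in light libraries. Each light library was above each control one. These are few reads, 8, 9, 5 and 0 in control and 38 to 211 in light, and the library at 0 would have shown 1.25 units for 3 reads. The log2 fold change of 3.26 ± 0.67 (adjusted p = 0.00315) was called in all 8 alternatives, between 3.12 and 4.20, and without any single library. Dnmt3c, a related gene outside the members, was at 6.00 ± 5.76 (SD, n = 4) in control and 0.453 ± 0.678 (n = 8) in light 8-cell libraries. How reads shared by Dnmt3b and Dnmt3c were counted is not given. The share of Dnmt3b in the summed signal per kb of the 4 Dnmt members was 5.87% ± 4.36 (n = 4) in control and 36.2% ± 15.6 (n = 8) in light. Other measures moved with it. The share of reads on the ribosomal rows was 73.9% to 77.0% in control and 68.9% to 73.9% in light libraries, and the 8 genes of the 2-cell stage summed to 36.3 to 304 and 0.532 to 65.8, with reads on all 8 in both groups. The 7 inner cell mass genes summed to 216 to 342 in control and 151 to 1040 in light libraries, above the control range in 7 of 8, and Sox2 had no reads in control. The 9 oocyte genes, all with reads in both groups, summed to 109 to 217 and 40.9 to 133. Their part in the Dnmt3b result was not tested.

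In the control group Dnmt3b then rose to 2.12, 63.1 and 256 (lowest, median and highest of 13) in morulae, by 3.73 ± 0.76 (adjusted p = 0.0012), in all 8 alternatives and without any single library. In light embryos the same step was -0.36 ± 0.58 (adjusted p = 0.745), with morula values of 2.53, 45.0 and 84.3 (of 6). The steps differed by -4.09 ± 1.02 (adjusted p = 0.0173), which was called in all 8 alternatives. It was lost without control 8-cell 4, the library at 0 reads (-3.39, adjusted p = 0.0852). At the other stages light and control differed by -0.82 to 0.76 in log2 fold and were not called. In blastocysts Dnmt3b was at 63.6, 132 and 101 in control and at 39.0, 84.9 and 135 (of 6) in light libraries, which overlap. The mean was lower in light on the deposited scale, at 88.8 against 98.8 in control. In CPM outside the ribosomal rows it was higher in light, at 223 ± 76.2 (SD, n = 6) against 148 ± 25.2 (n = 3). The step from morula to blastocyst in light embryos was 1.36 ± 0.53 (adjusted p = 0.0609) on the deposited scale and was called after median-ratio scaling (2.06, adjusted p = 0.00525).

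Dnmt3l fell from the 2-cell to the 4-cell stage in both groups. In control it went from 23.9, 85.4 and 123 (lowest, median and highest of 7) to 0, 13.5 and 37.8 (of 6), by -2.45 ± 0.75 (adjusted p = 0.0107), in all 8 alternatives. The light step of -1.44 ± 0.50 (adjusted p = 0.0237) was not called after median-ratio scaling (-1.07, adjusted p = 0.0901) and without light 4-cell 1 (adjusted p = 0.0512). Dnmt3l rose again from the 8-cell stage to the morula, in light by 2.27 ± 0.51 (adjusted p = 0.00327) and in all 8 alternatives, from a median of 10.7 to 56.3. The rise of 3.00 ± 0.99 in control (adjusted p = 0.0399) started from values of 0, 0, 11.6 and 14.6 and was called in 4 of 8 alternatives. It was lost without control 8-cell 1 or 2 (adjusted p = 0.177 and 0.186) or without any 1 of morulae 1, 6, 9, 10, 14, 16, 18, 21 or 23 (0.0503 to 0.0563).

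Dnmt3a, the other de novo enzyme among the members, fell from the 2-cell to the 4-cell stage in both groups. The step was -1.22 ± 0.35 in control (adjusted p = 0.0073) and -1.19 ± 0.32 in light (adjusted p = 0.00344). The steps differed by 0.03 ± 0.46 (adjusted p = 0.98). Its control values were 125, 255 and 284 (lowest, median and highest of 7) and then 68.1, 86.2 and 131 (of 6). After median-ratio scaling the falls were -1.11 (adjusted p = 0.00997) and -0.80 (adjusted p = 0.0418), the latter under 2-fold. Per reads outside the ribosomal rows both were under 2-fold, at -0.88 (adjusted p = 0.0365) and -0.86 (adjusted p = 0.0315). Light and control were not called apart for Dnmt3a at any stage. In blastocysts its deposited mean was 80.5 ± 55.4 (SD, n = 3) in control and 67.5 ± 17.5 (n = 6) in light. In CPM outside the ribosomal rows the order was reversed, with 119 ± 67.4 in control and 192 ± 98.5 in light.

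Dnmt1, the maintenance enzyme, was not called in any of the 17 comparisons. Its group means fell within 36.1 to 147 units, with 147 ± 51.5 (SD, n = 7) in control and 115 ± 40.5 (n = 6) in light 2-cell libraries. Later control means were 111 ± 67.3 (n = 6), 60.2 ± 18.6 (n = 4), 36.1 ± 19.5 (n = 13) and 41.0 ± 9.89 (n = 3) in stage order. The light blastocyst mean was 38.5 ± 11.7 (n = 6). Between stages, only neighbouring ones were compared, so the change over several steps was not tested. Log2 fold changes of light against control lay between -0.34 and 0.07 on the deposited scale. In CPM outside the ribosomal rows, control means were 110 ± 31.1 (n = 7) in 2-cell libraries and 64.7 ± 20.1 (n = 3) in blastocysts. Light means were 93.4 ± 40.1 (n = 6) and 104 ± 36.0 (n = 6), respectively.

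Uhrf1, which brings DNMT1 to replicated DNA, showed 2 high stages with low values between them. Control values were 32.5, 134 and 283 (lowest, median and highest of 7) in 2-cell embryos, 1.64, 10.5 and 25.3 (of 6) in 4-cell embryos, and 115, 272 and 77.7 in the 3 blastocyst libraries. The fall to 4 cells was -3.49 ± 0.60 (adjusted p = 6.1e-05), and the rise from morula to blastocyst was 3.56 ± 0.72 (adjusted p = 0.00132). Both were called in all 8 alternatives and without any single library, and neither pair of groups overlapped. Light embryos had a fall of -1.52 ± 0.43 (adjusted p = 0.00557), called in 6 of 8 alternatives, and a rise of 2.58 ± 0.56 (adjusted p = 0.00102), called in all 8.

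Between 2 and 4 cells the Uhrf1 steps of light and control differed by 1.97 ± 0.74 (adjusted p = 0.129), which limma did not call. DESeq2 called this difference (2.43, adjusted p = 0.0107). At the 4-cell stage light libraries had 17.8, 27.6 and 110 (lowest, median and highest of 8), and the log2 fold change against control of 1.62 ± 0.61 was not called (adjusted p = 0.166). The fall in light from 4 to 8 cells, -1.72 ± 0.53 (adjusted p = 0.0276), was not called after median-ratio scaling (-1.16, adjusted p = 0.242). It was lost without any 1 of light 4-cell 6, 9 or 14 or light 8-cell 5 or 11 (adjusted p from 0.0511 to 0.0709). At the 8-cell stage Uhrf1 means were 35.1 ± 23.9 (SD, n = 4) in control and 12.9 ± 9.47 (n = 8) in light. The control mean at the 4-cell stage was 12.9 ± 8.46 (n = 6). The steps from 4 to 8 cells were not called apart by limma over all libraries. DESeq2 called them apart (-3.195, adjusted p = 0.0165), as did limma without control 8-cell 2 (-3.77, adjusted p = 0.0219). In blastocysts the light values of 45.4, 64.2 and 117 (of 6) overlapped with control, with a log2 fold change of -0.99 ± 0.45 (adjusted p = 0.189).

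**Figure D4:**
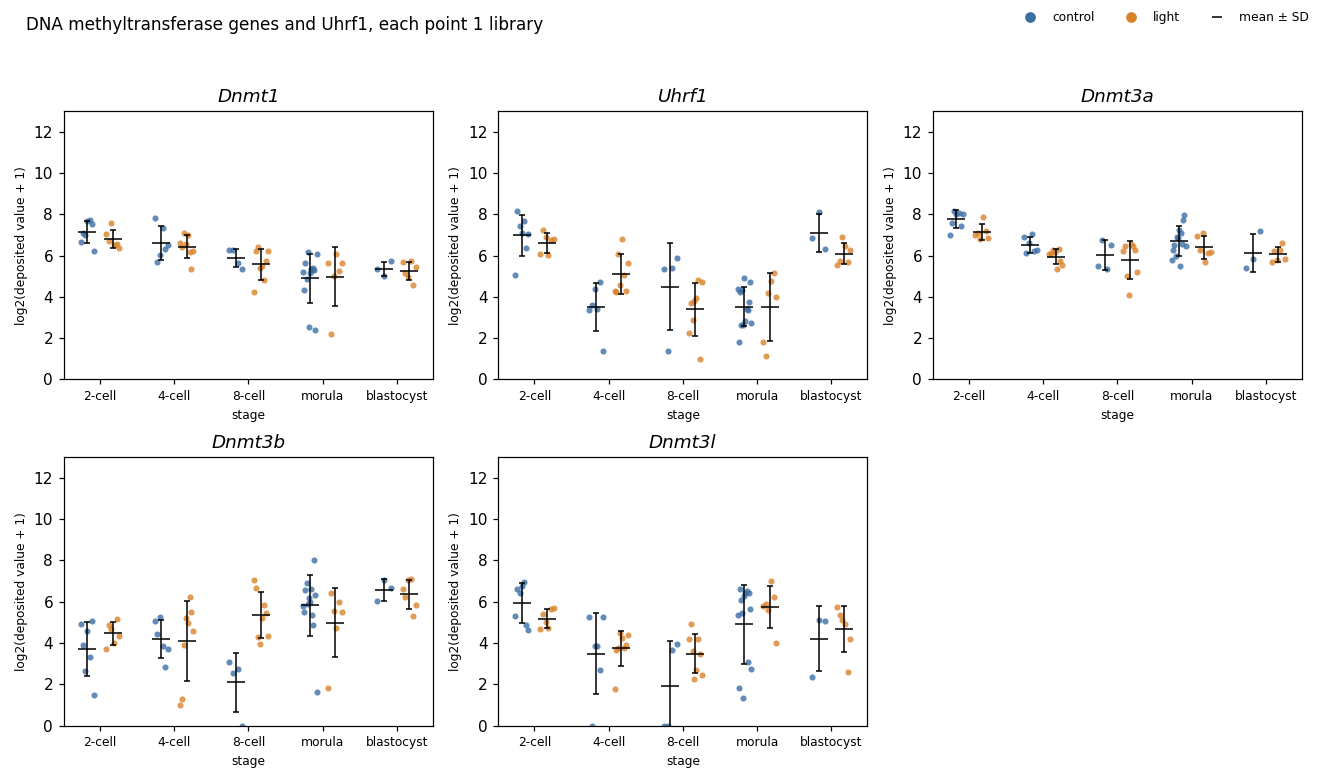
Log2 of the deposited value plus 1 (y axis) of Dnmt1, Uhrf1, Dnmt3a, Dnmt3b and Dnmt3l by stage (x axis), with 1 point for each control (blue) or light (orange) library and black bars for mean ± SD. The light points of Dnmt3b lie above all control points at the 8-cell stage, and Uhrf1 is high at the 2-cell and blastocyst stages in both groups.

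Trim28, the co-repressor that guards imprints, was the member called against light at the most stages, and in both directions. At the 2-cell stage its values were 60.4, 202 and 368 (lowest, median and highest of 7) in control and 323, 506 and 678 (of 6) in light libraries. The ranges overlap in part, and the log2 fold change was 1.57 ± 0.37 (adjusted p = 0.00522). It was called in all 8 alternatives, from 1.34 to 1.63, and without any single library. Limited to the 3 shared replicate numbers, limma did not call it with the replicate block (adjusted p = 0.118) or without it (adjusted p = 0.0972). Control embryos reached a comparable level at the next stage, with a rise of 1.68 ± 0.43 (adjusted p = 0.00309) to 368, 521 and 966 (of 6), in all 8 alternatives, whereas light embryos had a step of 0.31 ± 0.28 (adjusted p = 0.406). The difference between the steps was -1.37 ± 0.52 (adjusted p = 0.139).

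At the 8-cell stage Trim28 was at 125, 256, 279 and 271 in the 4 control libraries and at 313, 411 and 617 (lowest, median and highest of 8) in light. All light libraries were above all control ones on the deposited scale. In CPM outside the ribosomal rows the ranges overlapped, with means of 379 ± 144 (SD, n = 4) in control and 658 ± 145 (n = 8) in light. The log2 fold change of 0.97 ± 0.25 had an adjusted p of 0.016 but stayed under 2-fold. Without 1 library in turn it passed 2-fold in 6 of 12 fits. The fall of -1.25 ± 0.37 from the 4-cell stage in control (adjusted p = 0.0445) was lost after median-ratio scaling (-0.46, adjusted p = 0.61) and in 8 of 10 fits without 1 library, all but those without control 4-cell 4 or 6 (adjusted p from 0.0516 to 0.164). It was called in 3 of 8 alternatives and also lost without control 4-cell 1 and 2 together (-1.16, adjusted p = 0.053).

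From the 8-cell stage to the morula Trim28 moved in opposite directions. It rose by 1.17 ± 0.35 in control (adjusted p = 0.0237) and fell by -1.23 ± 0.24 in light embryos (adjusted p = 0.000926). Control morulae had 245, 479 and 1145 (lowest, median and highest of 13) and light morulae 114, 182 and 285 (of 6). The difference of the steps, -2.40 ± 0.43 (adjusted p = 0.000603), was called in all 8 alternatives, between -2.41 and -1.99, and in all 31 fits without 1 library. The control rise alone was lost without control 8-cell 1 (0.89, adjusted p = 0.138) and was under 2-fold after median-ratio scaling (0.90). Within morulae, light was lower by -1.43 ± 0.30 (adjusted p = 0.0118), in all 8 alternatives. This call was lost without light morula 12 (-1.30, adjusted p = 0.0528).

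In blastocysts Trim28 was at 604, 602 and 226 in control and at 108, 172 and 227 (lowest, median and highest of 6) in light libraries. Only control library 3 lay within the light range. The log2 fold change of -1.40 ± 0.38 (adjusted p = 0.033) was -0.74 (adjusted p = 0.326) after median-ratio scaling. The call was also lost with a pseudocount of 0.1, with no filter, per reads outside the ribosomal rows, by edgeR, by DESeq2 and in 1 fit over all libraries. It was lost as well without any 1 of control 1 or 2 or light 24 or 26 (adjusted p from 0.0641 to 0.194).

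Dppa3, also known as Stella, had the highest level per kb of exon among the members in each group, on the deposited scale. Its values were 1028, 1766 and 2440 (lowest, median and highest of 7) in control and 1179, 1925 and 2606 (of 6) in light 2-cell libraries, and the log2 fold change was 0.12 ± 0.24 (adjusted p = 0.798). Up to the morula no step of Dppa3 was called on the deposited scale, and the control step from 2 to 4 cells was 0.69 ± 0.26 (adjusted p = 0.0324) with a fold under 2, and was called per reads outside the ribosomal rows (1.03, adjusted p = 0.000521). From morula to blastocyst it fell in light embryos, from 876, 1492 and 2284 (of 6) to 144, 268 and 494 (of 6), by -2.40 ± 0.33 (adjusted p = 2.25e-06), in all 8 alternatives, with -1.67 after median-ratio scaling. In control embryos the step was -0.69 ± 0.33 (adjusted p = 0.197), and the steps differed by -1.72 ± 0.49 (adjusted p = 0.0618). This difference was called without any 1 of control morula 26, light morula 9 or light blastocyst 13 or 15 (adjusted p from 0.0186 to 0.0438) but not after median-ratio scaling (-1.17, adjusted p = 0.111).

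Control blastocysts had Dppa3 values of 756, 814 and 779, all above the light ones on the deposited scale. In CPM outside the ribosomal rows the ranges overlapped, with means of 1233 ± 269 (SD, n = 3) in control and 751 ± 292 (n = 6) in light. The log2 fold change was -1.55 ± 0.39 (adjusted p = 0.0238). After median-ratio scaling it was -0.88 (adjusted p = 0.148). The call was also lost with no filter, per reads outside the ribosomal rows, by edgeR and by DESeq2. It was lost as well without control 2 (adjusted p = 0.0963) or light 24 or 26 (0.0524 and 0.0509). The table also holds the pseudogene Dppa3-ps, at group means of 1.66 to 53.5 units. How reads shared with it were counted is not given, so Dppa3 values carry that uncertainty.

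**Figure D5:**
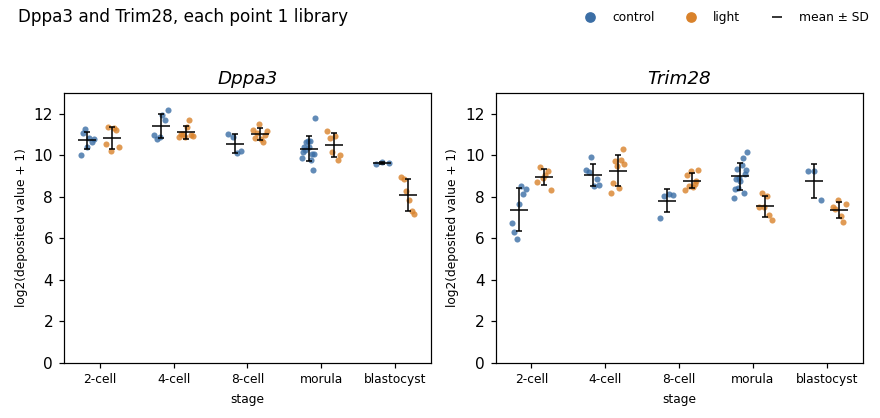
Log2 of the deposited value plus 1 (y axis) of Dppa3 and Trim28 by stage (x axis), with 1 point for each control (blue) or light (orange) library and black bars for mean ± SD. Trim28 means are higher in light 2-cell and 8-cell embryos and lower in light morulae and blastocysts, and Dppa3 is lowest in light blastocysts, on the deposited scale.

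Of 62 other genes that work with these factors, 59 were tested at the 2-cell stage and 10 were called, 8 of them higher in light (10.5% of all genes). The smallest adjusted p were those of Dppa2 (2.15 ± 0.42), Dppa4 (1.84 ± 0.39) and Cxxc5 (-3.55 ± 0.77), the former 2 being factors that keep promoters free of methylation. Among the 14 tested genes of base excision repair and TET partners, 4 were called and all were higher, namely Lig3 (1.72 ± 0.46), Parp1 (1.46 ± 0.39), Apex1 (1.95 ± 0.54) and Gadd45b (1.89 ± 0.63), which were named after their values were seen. Gadd45b was called in 5 of 8 alternatives and in 3 of 13 fits without 1 library, and the other 3 in all of them. At the 4-cell stage limma called 0 of 53, with 9 at an unadjusted p under 0.05, and edgeR and DESeq2 called 2 and 3. At the 8-cell stage 5 of 54 were called, with 9.2% of all genes, led by Idh1 (4.32 ± 0.59), whose product makes the cofactor of TET enzymes, Dmap1 (2.67 ± 0.66), a DNMT1 partner, and Cdca7 (2.42 ± 0.68). Kdm1a (-1.47 ± 0.43) and Lig1 (-1.94 ± 0.57), named after their values were seen, were lower. Cdca7 was lost without control 8-cell 1 or 3. In morulae 2 of 58 were called, where 1.18% of all genes were, both DNA glycosylases that were higher in light: Mbd4, with 19.7 ± 10.3 (n = 6) against 2.82 ± 4.95 (n = 13), and Neil1, with 5.50 ± 6.28 against 0 reads in all 13 control libraries. Mbd4 was lost without any 1 of control morula 9, 16 or 23 or light morula 3, 5, 6, 9 or 12, and Neil1 without control morula 23 or light morula 5, 9 or 12. In blastocysts 3 of 56 were called and lower in light, a share of 5.36% against 5.33% of all genes, namely Ogt (-2.47 ± 0.40), whose product modifies TET proteins, Neil3 (0 reads in all 6 light libraries) and Ahcy (-1.82 ± 0.48). Ogt was called in all 8 alternatives, Ahcy in 1 of 8, and Ahcy was lost without control blastocyst 1 or 2 or light blastocyst 24 or 26. Of these 56 genes, edgeR and DESeq2 each called only 1, Ogt, so neither called Neil3. In light blastocysts, 3 reads would have shown 0.961 to 1.58 units. Between stages, 33 of 59, 4 of 52, 11 of 57 and 10 of 58 of these genes were called in the control steps, where 46.1%, 6.32%, 14.3% and 11.9% of all genes were, and 27 of 60, 15 of 56, 7 of 56 and 16 of 57 in the light steps, where 36.5%, 10.5%, 11.8% and 20.7% were. Over these steps, Idh1 was called in all 8 steps, Mat2a and Dmap1 in 6, Zfp57, an imprint-reading KRAB zinc finger, and Hdac1, Neil1, Neil3 and Dppa2 in 5, Cbx1, Uhrf2 and Ahcy in 4, Kdm1b and Nsd1 in 3, and the methyl-CpG readers Mbd2 and Zbtb33 in 2.

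Over the means of the 10 groups, among 11071 genes with a mean of at least 10 in a group, the patterns most like that of Tet3 were those of Arhgap28 (Pearson r = 0.994) and Fchsd2 (0.991). Tet2 was most like Ptprn (0.981) and Marcks (0.98), Dnmt3b like Pdlim7 (0.933) and Prep (0.932), and Trim28 like Yif1b (0.928) and Polr1b (0.924). Of the members themselves, Tet3 and Dnmt1 were closest (0.859), followed by Tet3 and Dnmt3a (0.811), and the member closest to Tet2 was Dnmt3b (0.77). These are descriptions over 10 points that share libraries and size factors.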

How the data were processed

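The table deposited by the authors holds a signal per gene and library, the reads on a gene divided by a size factor. The submitters' processing notes name HISAT2, HTSeq 0.9.1 and mm9. The study's methods name RPKM, but no division by gene length was found. In each library at least 99.9586% of values were whole reads within 0.01, and these reads were used for edgeR and DESeq2. Rows whose symbol had become a date (24, at most 0.0379% of a library's signal) were left out. Tests used limma 3.58.1 (R 4.3.3) on log2(value + 1), over genes above 1 in at least 3 libraries of the groups compared, with Benjamini-Hochberg adjustment, so that fold changes of low genes are understated. A call needed an adjusted p under 0.05 and a 2-fold change. Alternatives were a pseudocount of 0.1, no filter, a mean above 5, median-ratio scaling, scaling by reads outside the ribosomal rows, edgeR 4.0.16, DESeq2 1.42.0, 1 fit over all libraries, a replicate block, and leaving out each library. The fits of 3 comparisons were tested on simulated data. The members were named by symbol, and partners as up to 3 called genes of smallest adjusted p against light and up to 2 of a group called in most steps. Members and lists were chosen with earlier results of these data known. Exon lengths are from GENCODE M21 (GRCm38), and figures and tables used Python 3.11.15, numpy 2.4.6, pandas 2.3.3, scipy 1.17.1 and matplotlib 3.10.9. Same-numbered libraries did not deviate together (correlations -0.0871 to 0.0695), so numbers were not taken as pairs.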

Additional observations from a re-analysis of the deposited data

Results flagged for a closer look

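In 7 of 80 sets of 1 gene in 1 group, a library lay far from the others by Dixon's criterion, where chance gives about 1 in 20. Control 2-cell 12 had the highest Tet3 (1632.16, next 1121.5) and the highest Tet1 (502.303, next 217.325) of its 7 libraries. Light 8-cell 6 had the highest Tet1 (338.339, next 177.378) and the highest Tet2 (92.4056, next 38.8739) of 8. Dnmt3a was highest in light 2-cell 14 (229.593, next 146.82) of 6 libraries, Tet1 lowest in light blastocyst 26 (16.1895, next 45.6359) of 6, and Trim28 lowest in control 8-cell 1 (124.948, next 256.087) of 4. These are deposited values. On this scale 1 CPM was worth 1.89 units in control 2-cell 12 and 1.12 to 1.32 in the rest of its group. It was worth 0.254 units in light blastocyst 26 and 0.298 to 0.553 in the rest of its group. The part of the size factors in these extremes was not tested.

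By an interaction term in limma, the step from 8-cell embryo to morula differed between light and control for Dnmt3b (-4.09) and Trim28 (-2.40), with control rising for both and light falling for Trim28.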

How the results depend on the processing

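Counts of members called are given here as the reported count, the range without 1 library, and each alternative that moved it by more than 1.5 times. Light against control gave 2 at the 2-cell stage (2 to 2), 0 at the 4-cell stage (0 to 0), 1 at the 8-cell stage (1 to 2, and 2 by DESeq2) and 1 in morulae (0 to 1). In blastocysts 4 (0 to 4) became 2 with no filter, 1 by median-ratio scaling, 0 by reads outside the ribosomal rows, 1 by edgeR, 2 by DESeq2 and 2 in 1 fit. Control steps gave 6 from 2 to 4 cells (5 to 6), 1 from 4 to 8 cells (0 to 1, and 0 with no filter, either scaling, edgeR or DESeq2), 4 to the morula (2 to 4), and 1 to the blastocyst (1 to 2), which became 3 by median-ratio scaling, edgeR and DESeq2 and 2 by reads outside the ribosomal rows and in 1 fit. Light steps gave 4 from 2 to 4 cells (3 to 4, with 2 by either scaling and 1 by edgeR or DESeq2), 2 from 4 to 8 cells (0 to 2, with 0 with no filter, either scaling, edgeR, DESeq2 or 1 fit), 4 to the morula (4 to 4), and 2 to the blastocyst (2 to 3, with 4 by either scaling, edgeR or DESeq2). Differences between steps gave 0 from 2 to 4 cells (0 to 1, with 1 by a mean above 5, either scaling or edgeR and 2 by DESeq2), 0 from 4 to 8 cells (0 to 1, with 2 by DESeq2 and 1 in 1 fit), 2 to the morula (1 to 2) and 0 to the blastocyst (0 to 1, and 1 in 1 fit). With the replicate number as a block, over shared numbers, 0 members were called in light against control in 2-cell embryos and morulae, 0 in the control steps from 4 to 8 cells, to the morula and to the blastocyst, 0 in the light steps from 2 to 4 and 4 to 8 cells, and 2 to the morula. The same libraries without the block, an alternative chosen after seeing the data like that without control 4-cell 1 and 2, gave the same counts except 1 for light from 4 to 8 cells, with fewer samples in both. Uhrf1 from 2 to 4 cells in light reversed to 0.16 (0.158) with and without the block over these libraries. No paired analysis was possible because the groups shared fewer than 2 numbers for light against control at the 8-cell and blastocyst stages, the control step from 2 to 4 cells and the light step to the blastocyst, and none was made for differences between steps. The share of called genes that were lower moved by over 10 points from the deposited to median-ratio scaling, from 35.7% to 49.0% (8-cell), 69.8% to 50% (morula) and 93.4% to 53.5% (blastocyst) in light against control, from 81.9% to 27.4%, 52.3% to 63.5% and 43.1% to 31.8% in the last 3 control steps, from 79.6% to 67.1%, 94.1% to 58.1% and 75.8% to 38.0% in the light steps from 2 to 4 cells, 4 to 8 cells and to the blastocyst, and from 47.0% to 32.3%, 54.4% to 37.1% and 92.4% to 67.5% in the differences from 2 to 4 cells, to the morula and to the blastocyst. The cause of these moves was not tested. With 317917 to 2864968 reads outside the ribosomal rows, genes of few reads such as Dnmt3b in control 8-cell embryos have wide counting error.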
